A study of Mus musculus with 4 samples.

Results

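Prox1, Foxc2, Vegfc, Flt4, Mmrn1, Reln, Nts, Fgl2 and Lyve1 are genes of lymphatic endothelium, the cell layer that lines lymph vessels and the sinuses of lymph nodes. These 9 genes were chosen by name. Every array probe that was not a control and whose gene name in the deposited files was one of these symbols or an older synonym was taken, which gave 15 of 41174 probes and 9 of 27597 gene names. Lyve1 appears there under its older name Xlkd1. The RNA came from CD45- cells of the gut-draining mesenteric lymph node (labelled mLN) or of peripheral lymph nodes (labelled pLN), both from wild-type C57BL/6NCrl mice with no treatment named. CD45 is the surface protein of blood-derived leukocytes, and removing cells that carry it by magnetic sorting leaves stromal and endothelial cells. Each of 2 experiments gave 1 array per node type, so that 4 single-colour arrays stand for 2 groups of 2. The labels give a mean CD45- purity of 97.4% ± 2.0 in mLN preparations and of 97.5% ± 2.2 in pLN preparations. They do not give the animals' age, the number of animals behind each array or which peripheral nodes were used. The series text calls the cells stem cells, whereas its title calls them stromal cells, and no step separated endothelium from the other CD45- cells.

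PROX1 is the transcription factor that gives and keeps lymphatic identity, and it keeps the gene of VEGFR-3, Flt4, active. VEGFR-3 is the receptor for VEGF-C, the growth factor from which lymph vessels sprout. In a lymph node, afferent lymph enters a sinus under the capsule and leaves through medullary sinuses, and LYVE1, a surface receptor that binds the matrix sugar hyaluronan, marks the lining of many, but not all, of these spaces.

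The sequences of 3 probes are shown because each reads as an open frame, so that the part of the transcript it covers can be seen in its letters. The dimmest of the 3 Prox1 probes (mm8 chr1:191854278-191861335, minus strand) is 60 bases long, has a frame open over 57 of them and covers 7058 bases of genome, as a probe across an intron does. The Nts probe (mm8 chr10:101912021-101912080, minus strand) reads through the peptide itself. Its capitals mark the codons of neurotensin apart from the residue at the peptide's start, followed by the lysine-arginine cleavage site in lower case. The second Lyve1 probe (mm8 chr7:110643335-110643393, minus strand) crosses the end of a reading frame, and its capitals mark a TAG stop codon after 36 bases of open frame.
Prox1, probe over a splice junction: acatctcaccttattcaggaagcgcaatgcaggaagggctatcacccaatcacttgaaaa
Nts, probe over neurotensin: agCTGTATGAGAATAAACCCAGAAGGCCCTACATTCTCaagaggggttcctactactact
Lyve1, probe over the stop codon: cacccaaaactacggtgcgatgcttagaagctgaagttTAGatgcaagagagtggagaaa

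RefSeq promoter windows (build GRCm38.p6) were at hand for 7 of the 9 genes, in 8 windows. The letters AACAAT, a core that SOX family factors such as the lymphatic factor SOX18 bind, were searched on both strands, where the other strand reads ATTGTT. They were in 1 of the 8 windows and in 9.42% of all 32851 windows of this length. That window is the one of Mmrn1, shown here over the 250 bases before its start (GRCm38.p6 chr6:60944067-60944316, plus strand) with the match in capitals, which is a description of letters and not a binding site.
Mmrn1, promoter: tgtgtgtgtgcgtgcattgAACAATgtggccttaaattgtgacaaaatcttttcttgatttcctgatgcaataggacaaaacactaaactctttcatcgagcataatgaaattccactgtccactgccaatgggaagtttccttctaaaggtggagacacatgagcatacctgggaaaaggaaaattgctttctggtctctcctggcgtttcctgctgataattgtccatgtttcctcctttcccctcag

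On the 4 arrays, 74.0% to 81.1% of the probes were well above background, and the 75th percentile of the processed signal lay between 1686 and 1741. A level below is the log2 processed signal minus that percentile of its own array, so that a level of 0 is the 75th percentile. A difference is the mLN level minus the pLN level, also in log2 units. Each gene is read from its brightest probe, and all 9 genes were well above background on all 4 arrays, with none saturated. Brightness differs between probes for reasons of sequence, so levels are compared between arrays and never between genes.

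None of the 9 genes passed an adjusted p of 0.05 in limma across all 21392 genes tested, where 225 genes, 1.05%, did (0.776% higher and 0.276% lower in mLN). At an unadjusted p below 0.05 there were 3 of 9, Prox1, Reln and Lyve1, against 14.7% of all genes. Both mLN arrays lay above both pLN arrays for 3 of the 9 genes, Vegfc, Reln and Lyve1, where 20.6% of all genes did so. Both lay below for 3 genes, Prox1, Foxc2 and Mmrn1, against a background of 25.0%. In either direction that is 6 of 9, against 45.6% of all genes, and Flt4, Nts and Fgl2 overlapped between the nodes. The median difference of the 9 genes was -0.22, beside -0.03 over all genes. In a whole CD45- sample, fewer lymphatic endothelial cells and less RNA per cell cannot be told apart.

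**Figure D1:**
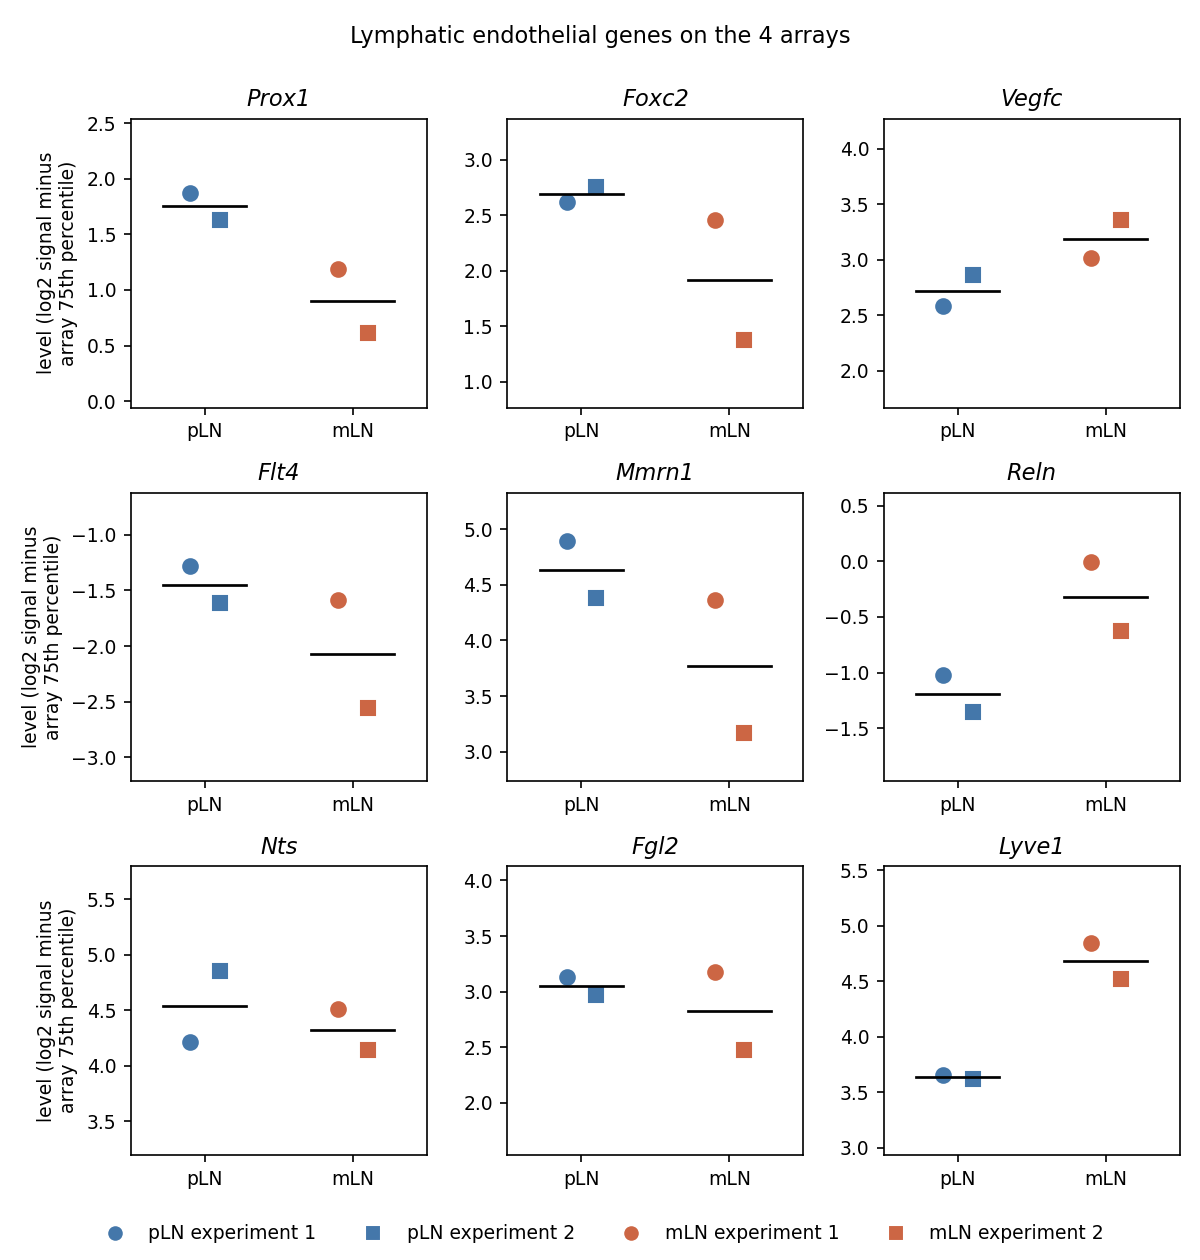
Level of each of the 9 genes on each array, as log2 processed signal minus the array's 75th percentile. Blue is pLN and orange mLN, circles are experiment 1 and squares experiment 2, and bars are the means of 2 arrays; Lyve1 has both mLN points above both pLN points, while in Mmrn1 and Foxc2 the mLN point of experiment 2 lies far below the rest.

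The transcription factors of lymphatic identity and valves come first. Prox1 was at 1.87 and 1.63 on the pLN arrays of experiments 1 and 2 and at 1.19 and 0.61 on the mLN arrays. Both mLN arrays were below both pLN arrays, and the difference was -0.85 ± 0.25 (SE, 2 arrays per node; limma adjusted p = 0.247), or 1.80-fold lower in mLN. The 95% interval ran from -1.53 to -0.17, and leaving out 1 array moved the value between -1.14 and -0.56. The other Prox1 probes (the splice-junction probe shown above among them) gave -0.82 and -0.65, also with no overlap between the nodes. Prox1 is the gene among the 9 read by 3 probes, and each gave a lower signal in mLN, though the gene did not pass the threshold.

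Foxc2, a forkhead factor needed for lymphatic valves, was at 2.62 and 2.75 in pLN and at 2.46 and 1.38 in mLN. The mLN array of experiment 1 was just below the pLN arrays and that of experiment 2 far below them. The difference, -0.77 ± 0.39 (SE, 2 arrays per node; limma adjusted p = 0.485), was made mostly in experiment 2, where it was -1.37, against -0.16 in experiment 1. Without the mLN array of experiment 2 the value was -0.23, and without that of experiment 1 it was -1.31.

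The ligand and its receptor went in different directions, neither past the threshold. Vegfc was at 2.58 and 2.86 in pLN and at 3.01 and 3.35 in mLN. Both mLN arrays were higher, by 0.43 in experiment 1 and 0.49 in experiment 2, with a difference of 0.46 ± 0.20 (SE, 2 arrays per node; limma adjusted p = 0.413) and a 95% interval from -0.08 to 1.00. Vegfc was at 0.29 without the mLN array of experiment 2 and at 0.12 with normexp background correction in place of the scanner's own. Flt4, which encodes the receptor, was at -1.28 and -1.61 in pLN and at -1.58 and -2.56 in mLN. Here the groups overlapped, since the mLN array of experiment 1 lay between the pLN arrays, and the difference was -0.62 ± 0.37 (SE, 2 arrays per node; limma adjusted p = 0.555). It was -0.14 without the mLN array of experiment 2 and -1.11 without that of experiment 1, and under normexp it turned to 0.37.

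Other secreted products had differences of both signs. Mmrn1 encodes multimerin-1, a large matrix and platelet glycoprotein that lymphatic endothelium also makes, and it was at 4.89 and 4.38 in pLN and at 4.36 and 3.17 in mLN. The mLN array of experiment 2 was the lowest by far, while that of experiment 1 was almost level with the lower pLN array. The difference, -0.87 ± 0.46 (SE, 2 arrays per node; limma adjusted p = 0.502), was -0.27 without the mLN array of experiment 2 and -1.46 without that of experiment 1. A much dimmer Mmrn1 probe, well above background on 3 of 4 arrays, gave -1.29.

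Reln encodes reelin, an extracellular signal best known from brain layering that lymphatic endothelium of collecting vessels also secretes. It was at -1.02 and -1.35 in pLN and at -0.01 and -0.63 in mLN, the mean of 10 spots of 1 probe on each array. Both mLN arrays were higher, with a difference of 0.87 ± 0.27 (SE, 2 arrays per node; limma adjusted p = 0.270) and a 95% interval from 0.14 to 1.60. Without the mLN array of experiment 1 the value was 0.56, and without that of experiment 2 it was 1.18. A second Reln probe was above background on 0 arrays and did not enter.

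Nts encodes the precursor of neurotensin, a peptide of gut and nerve that lymphatic endothelial cells also express. Its levels were 4.22 and 4.85 in pLN and 4.51 and 4.14 in mLN, so the nodes overlapped and the experiments went opposite ways, 0.29 and -0.71. Fgl2, a fibrinogen-like protein with prothrombinase activity, was at 3.14 and 2.97 in pLN and at 3.18 and 2.48 in mLN, and its experiments differed likewise, 0.04 and -0.49. The differences were -0.21 ± 0.28 for Nts (SE, 2 arrays per node; limma adjusted p = 0.820) and -0.22 ± 0.28 for Fgl2 (limma adjusted p = 0.803). Their 95% intervals, -0.97 to 0.55 and -0.97 to 0.53, leave room for a change of either sign, and the sign did turn when single arrays were left out.

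Lyve1 was the gene with the most separate groups. Its processed signal was 21826 and 20792 on the pLN arrays and 50017 and 39722 on the mLN arrays. As levels these are 3.65 and 3.62 against 4.84 and 4.52. The pLN arrays were nearly equal and both mLN arrays stood well above them, by 1.19 in experiment 1 and 0.90 in experiment 2. The difference was 1.04 ± 0.17 (SE, 2 arrays per node; limma adjusted p = 0.105), 2.06-fold higher in mLN, with a 95% interval from 0.58 to 1.51. The second Lyve1 probe, over the stop codon, gave 1.15 from levels of 1.51 and 1.34 in pLN and 2.77 and 2.38 in mLN. Of all genes, 96.2% had a lower difference than Lyve1, and 570 had a smaller p.

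The Lyve1 call depends on how limma estimates the spread and on the scaling. With an intensity trend in the prior variance its adjusted p was 0.0343 and it was the 1 of 9 genes called, where 2.06% of all genes were. Scaling to pan-endothelial genes, an alternative added after the data were seen, gave 1.45 with a limma adjusted p of 0.0272. That scaling called 898 of the 21392 genes, 805 of them higher in mLN, and moved the median of all genes to 0.37. Over all alternatives the difference stayed between 0.70 and 1.45, and the limma adjusted p ran from 0.0272 to 0.690.

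**Figure D2:**
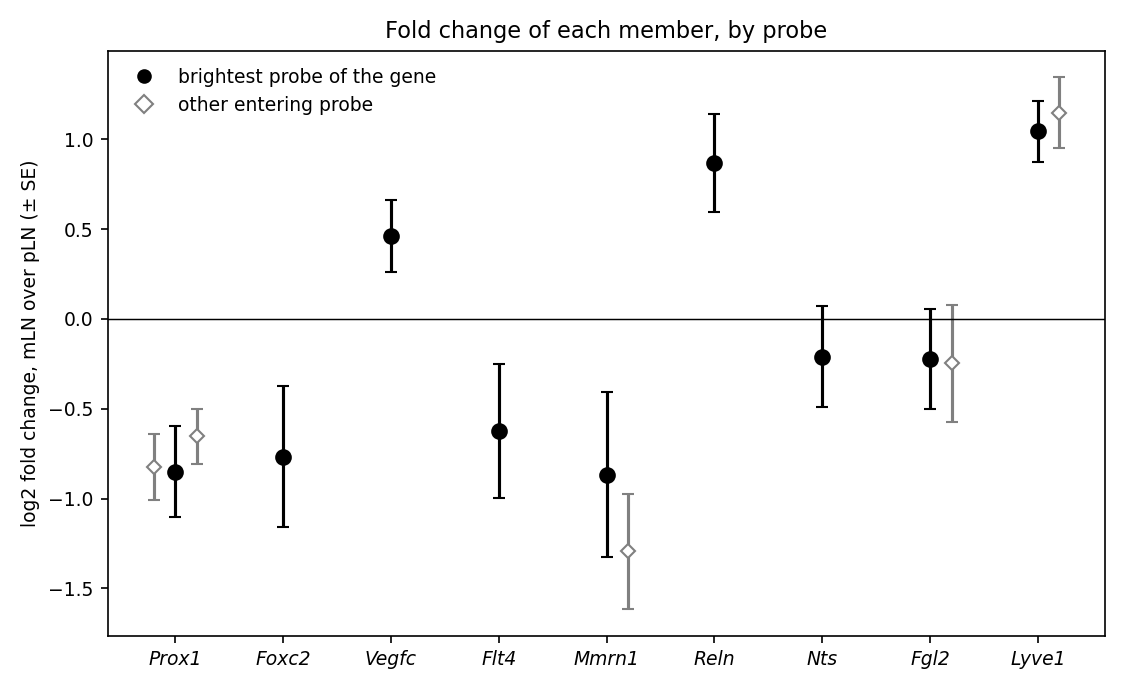
Difference mLN minus pLN (log2) for each of the 9 genes, with error bars of ± SE. Black circles are the brightest probe of a gene and open diamonds its other entering probes. The bars of Nts and Fgl2 include 0, and those of the other genes do not. The wider 95% intervals of the fit are not drawn. They lie above 0 for Lyve1 at 1.04 and Reln at 0.87 and below 0 for Prox1 at -0.85, and the others include 0.

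How far Lyve1 departed from each of the others was taken within arrays, as the Lyve1 level minus the other gene's level, compared between nodes. This difference was 1.91 against Mmrn1, 1.89 against Prox1, 1.81 against Foxc2 and 1.67 against Flt4. It was smaller against Fgl2, 1.27, and Nts, 1.25, and smallest against the genes that were also higher in mLN, 0.58 against Vegfc and 0.17 against Reln. Prox1 gave nearly the same departure in both experiments, 1.87 and 1.92, whereas Foxc2 gave 1.35 and 2.27.

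In 7 of the 8 pairs the mLN arrays did not overlap the pLN arrays, and Reln was the exception. With 2 arrays per node the exact permutation test has 3 splits and cannot give a two-sided p below 1 in 3, which is what each of the 7 pairs gave (exact permutation p adjusted over 8 pairs, 0.381). For Reln the exact permutation p was 0.667. No pair can pass the threshold in this test. Both mLN arrays held more Lyve1 relative to Prox1, Mmrn1, Foxc2 and Flt4 than both pLN arrays did, while no departure from Reln was detectable. Under normexp the departure from Flt4 shrank to 0.33 with overlapping arrays, and that from Reln turned to -0.25.

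**Figure D3:**
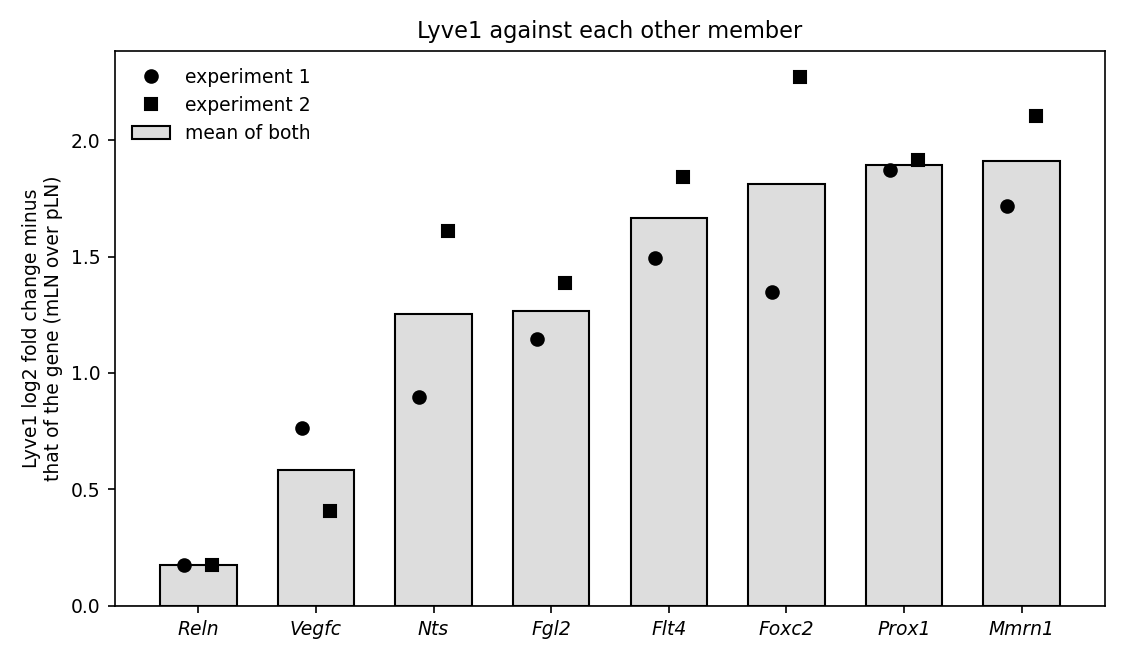
Lyve1 level minus the level of each other gene, mLN minus pLN (log2), with the mean of both experiments and the value in each. All 8 means are above 0, from 0.17 for Reln to 1.91 for Mmrn1.

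Of the arrays, the mLN array of experiment 2 held the lowest level for 6 of the 9 genes, while 30.3% of all genes were lowest there. The median difference of the 9 genes was 0.04 in experiment 1 and -0.71 in experiment 2, and Lyve1, Reln and Vegfc were positive in both. In units of the array's 75th percentile, the summed level of 15 pan-endothelial markers was 388 and 379 on the pLN arrays, 316 and 250 on the mLN arrays. Their median difference was -0.52 in experiment 1 and -0.34 in experiment 2. By median, the larger fall was thus in experiment 1 for these markers and in experiment 2 for the 9 genes. By summed level, however, the markers fell more in experiment 2. All 15 of these markers had negative differences, from -0.70 to -0.06 with a median of -0.45, and 11 of 15 did not overlap, all lower, where 25.0% of all genes were lower without overlap. Limma called 0 of the 15. Emcn gave -0.54 (limma adjusted p = 0.193), Erg -0.60 (0.248), Cdh5, the VE-cadherin gene, -0.55 (0.260) and Pecam1, which encodes CD31, -0.67 (0.295).

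Scaled to these pan-endothelial genes, the differences were -0.45 for Prox1, -0.46 for Mmrn1, -0.36 for Foxc2 and -0.22 for Flt4, and 0.86 for Vegfc, 1.27 for Reln and 1.45 for Lyve1. Nts and Fgl2 turned to 0.19 and 0.18. This scaling moves all genes by the same amount on an array, so it leaves the departure of Lyve1 from the others as it was and turns the sign of the 2 genes nearest to 0. Whether the share of endothelium among the sorted cells has a part in any of these differences was not tested.

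The lymphatic growth factor pathway was read from 20 further genes of the VEGF-C axis, its processing enzymes, the angiopoietins and the ephrins. Where 1.05% of all genes were called, 1 of these 20 was, Vegfd, the other ligand of VEGFR-3. It was at -0.21 and -0.08 in pLN and at 1.47 and 1.42 in mLN, so that both mLN arrays stood far above, and it rose by 1.59 ± 0.14 (SE, 2 arrays per node; limma adjusted p = 0.0306), 3.01-fold. The call ended when any 1 of the 4 arrays was left out (limma adjusted p from 0.0744 to 0.205).

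Among the genes of that list that were not called, Adamts3, the protease that activates VEGF-C, gave 0.97 ± 0.14 (limma adjusted p = 0.0807). Dimmer Adamts3 probes that entered gave 0.74 and -0.30. Angpt2, a ligand of the Tie2 receptor, gave -0.97 ± 0.15 (0.0916), Efnb2, the valve ephrin, -1.16 ± 0.21 (0.117), and its receptor gene Ephb4 -0.54 ± 0.13 (0.190). In all, 7 of the 20 did not overlap upward (background 20.6%) and 9 downward (background 25.0%), with a median difference of -0.19.

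Lymphatic identity and valve genes other than the 9 numbered 20 tested of 24 listed. Limma called 0, while 12 lay lower in mLN without overlap (background 25.0%) and 2 higher (background 20.6%), and the median difference was -0.57, beside -0.03 over all genes. Hhex, a homeobox factor upstream of lymphatic identity, gave -0.85 ± 0.18 (limma adjusted p = 0.151). Sox18, an activator of Prox1, gave -0.64 ± 0.14 (0.155), Nfatc1, a factor of valve formation, -0.78 ± 0.17 (0.157) and Foxc1 -0.92 ± 0.24 (0.197). All 4 have the sign of Prox1 and Foxc2, which is also that of the 15 pan-endothelial genes, and none passed the threshold. Of the 20 differences 14 were negative and 6 positive, the highest at 0.46. The summed level of the list was 334 and 396 on the pLN arrays and 353 and 411 on the mLN arrays. By that measure it did not fall in either experiment. The list's median was -0.38 without the mLN array of experiment 2 and -0.17 when scaled to pan-endothelial genes.

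**Figure D4:**
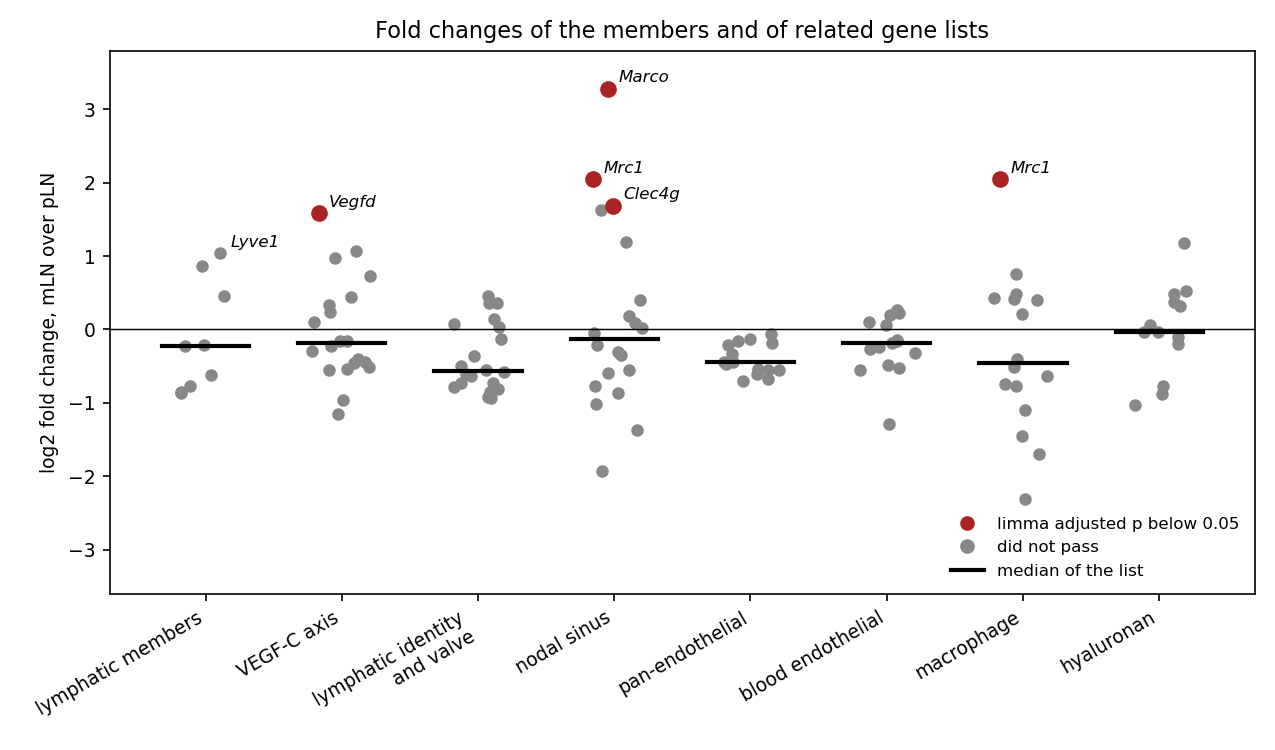
Difference mLN minus pLN (log2) of the 9 lymphatic genes and of each tested gene in 7 lists, with genes that passed limma's adjusted p of 0.05 in red, the others in grey and each list's median as a bar. The identity and valve list has a median of -0.57 and the pan-endothelial list one of -0.45, while Marco stands highest in the sinus list at 3.28.

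Sinus genes behaved unevenly. Of 20 genes of subcapsular floor and ceiling and medullary sinus endothelium, 3 rose and 0 fell, where 0.776% of all genes rose and 0.276% fell. Their differences were positive for 9 and negative for 11, and 6 lay higher without overlap (background 20.6%) and 7 lower (background 25.0%). The median was -0.12, and it turned to 0.02 without the pLN array of experiment 1. Marco, a scavenger receptor of medullary sinus endothelium and of macrophages, was at 2.40 and 2.50 in pLN and at 5.82 and 5.65 in mLN, an increase of 3.28 ± 0.15 (SE, 2 arrays per node; limma adjusted p = 0.0108), 9.74-fold. Clec4g, a C-type lectin of liver and lymph node sinus endothelium, was at 2.15 and 2.08 in pLN and at 3.92 and 3.69 in mLN and rose by 1.69 ± 0.16 (limma adjusted p = 0.0337). Mrc1, the mannose receptor of sinus endothelium and macrophages, was at -2.13 and -1.83 in pLN and at 0.21 and -0.08 in mLN and rose by 2.05 ± 0.20 (limma adjusted p = 0.0365). In each of these genes both mLN arrays were well above both pLN arrays, as in Lyve1.

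The calls differ in how firmly they stood. Marco lost its call when either pLN array was left out (limma adjusted p = 0.0979 and 0.108) and kept it without either mLN array, whereas Clec4g and Mrc1 lost theirs without any 1 array. The mean of all probes of Clec4g gave a limma adjusted p of 0.175, and with the experiment as a block Mrc1 was at 0.0540. Without the filter on dim probes Clec4g, Mrc1 and Vegfd were no longer called (limma adjusted p = 0.103, 0.105 and 0.0991), and normexp left no gene of the whole array called.

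Other sinus genes were not called. Oit3, expressed in sinusoidal endothelium of liver and lymph node, gave 1.19 ± 0.16 (limma adjusted p = 0.0718), and Ccl20, a chemokine of the sinus floor, -1.93 ± 0.29 (0.0895). A dimmer Oit3 probe that entered gave 0.33. Coch, also in the sinus list, gave -1.37 ± 0.30 (0.155). Madcam1, an adhesion molecule of floor endothelium and high endothelial venules, gave 1.64 ± 0.41 (0.191).

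**Figure D5:**
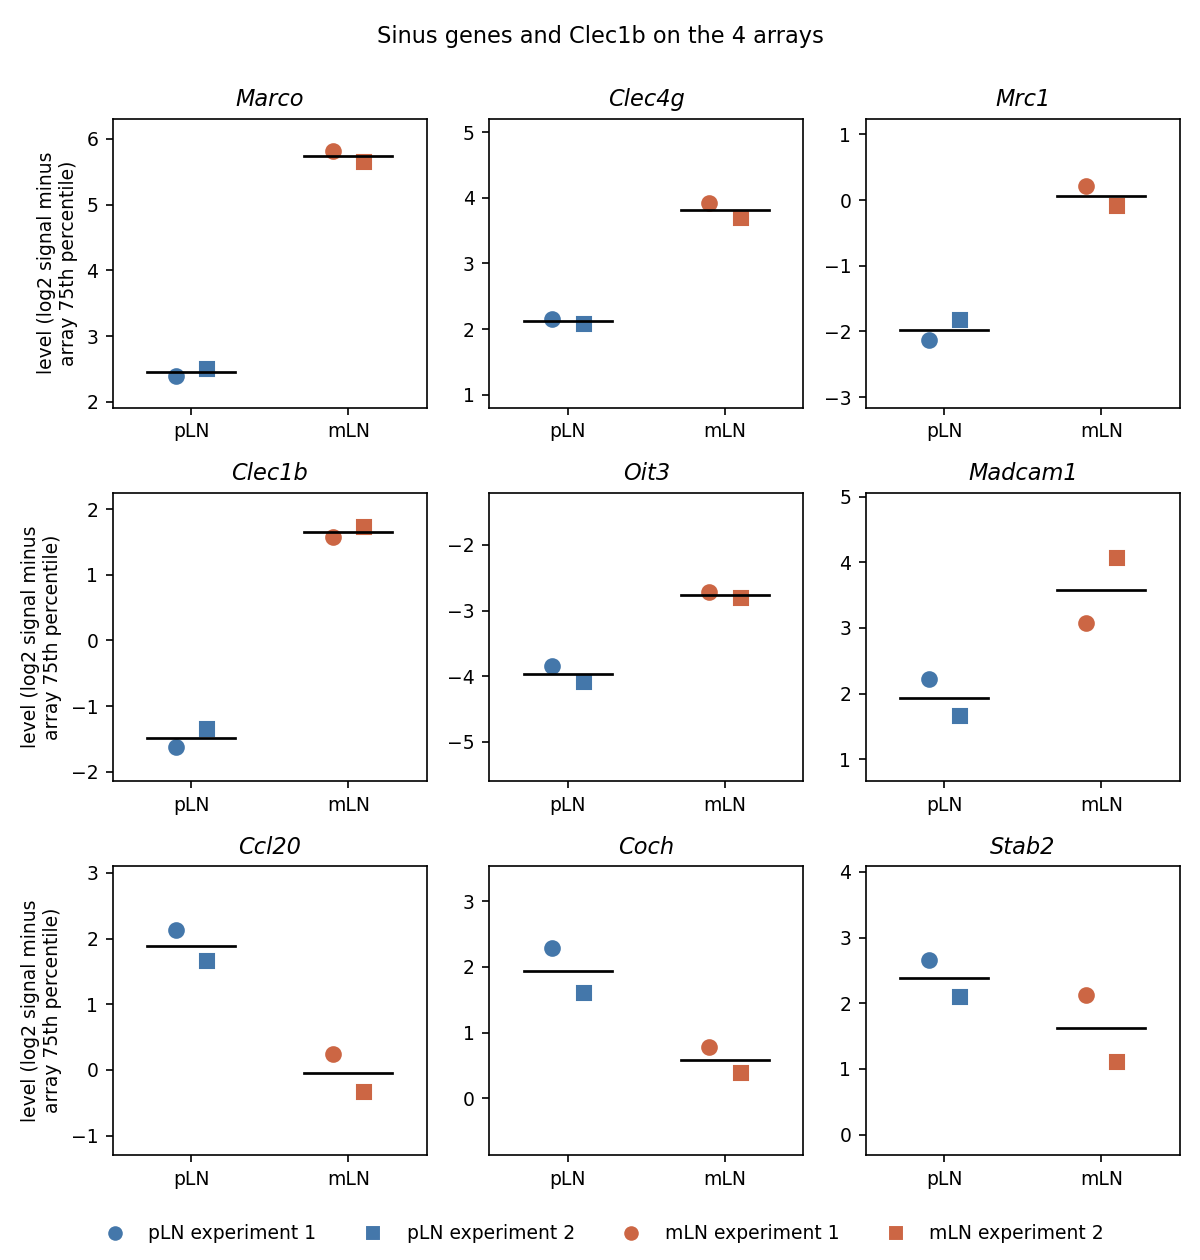
Levels of sinus genes and of Clec1b on each array, as log2 processed signal minus the array's 75th percentile, with pLN in blue, mLN in orange, circles for experiment 1, squares for experiment 2 and bars for means. Marco, Clec4g, Mrc1 and Clec1b are higher on both mLN arrays, and Ccl20 and Coch lower on both.

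Since LYVE1 binds hyaluronan, genes that make, bind or break down this sugar were read too, 13 tested of 15 listed. Limma called 0, and 1 did not overlap upward (background 20.6%) and 2 downward (background 25.0%). The median difference was -0.03. Has3, a hyaluronan synthase, gave -1.03 ± 0.19 (limma adjusted p = 0.121) and Hapln1, a link protein, -0.88 ± 0.20 (0.166). A dimmer Hapln1 probe that entered gave -0.26. Cemip, which takes part in hyaluronan breakdown, gave 1.18 ± 0.54 (0.441), and its other entering probes gave 1.10 and -0.02. Stab2, a clearance receptor for hyaluronan on sinus endothelium that is also in the sinus list, overlapped between nodes, with 2.66 and 2.10 in pLN and 2.13 and 1.11 in mLN, and gave -0.76 ± 0.42 (0.514).

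The receptors and relatives of reelin and neurotensin were read together with a netrin gene, 8 genes in all. Their median difference was 0.06, with 0 called by limma. Vldlr, a reelin receptor, gave 0.58 ± 0.15 (limma adjusted p = 0.197), and Lrp8, the other, 0.54 ± 0.39 (0.623). Lrp8 went -0.20 in experiment 1 and 1.29 in experiment 2, and its other probes gave -0.03 and -1.52. Sort1, which encodes the neurotensin-binding protein sortilin, gave -0.37 ± 0.21 (0.525), and the netrin gene Ntn1 -0.77 ± 0.40 (0.500).

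Several of these genes are also made by macrophages, which can carry Lyve1, Marco and Mrc1. Of 16 macrophage genes tested of 18 listed, 1 was called, Mrc1 itself, where 1.05% of all genes were. Differences were positive for 7 and negative for 9, and 3 lay higher without overlap (background 20.6%) and 6 lower (background 25.0%). The median difference was -0.46, but it turned to 0.01 without the pLN array of experiment 1 and to 0.89 under normexp. The summed level of the list was 15.2 and 11.0 in pLN and 9.88 and 7.43 in mLN. Much of it was Lyz2, the lysozyme gene, and without that gene the sum was 5.65 and 5.78 in pLN and 4.61 and 4.04 in mLN. Cd163, a defining marker of tissue macrophages, was well above background on 0 arrays, and Vsig4, another, on 2, so that neither was tested. Timd4, a receptor of resident macrophages, gave -2.32 ± 0.29 (limma adjusted p = 0.0624), Folr2 -1.70 ± 0.46 (0.212) and Mertk -0.40 ± 0.17 (0.406). The positive ones beside Mrc1 were Cd68 at 0.75, the complement genes C1qc, C1qa and C1qb at 0.48, 0.42 and 0.21, Adgre1, which encodes F4/80, at 0.42 and Csf1r at 0.40, none past the threshold.

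Platelets and leukocytes can carry Mmrn1 and other list genes. Over all genes 1.05% were called, and of 10 platelet genes Clec1b was. It encodes CLEC-2, the podoplanin receptor that lymph node sinus endothelium has been reported to express as well, and it rose by 3.15 ± 0.17 (limma adjusted p = 0.0127) from -1.63 and -1.36 in pLN to 1.58 and 1.73 in mLN. Leaving out either pLN array ended this call (limma adjusted p = 0.102 and 0.108). The platelet list's median was -0.33. Of 14 leukocyte genes limma called 0. Cd8a gave 1.11 ± 0.18 (limma adjusted p = 0.102), Itgax 0.61 ± 0.17 (0.233), Lck -0.33 ± 0.14 (0.398) and Cd3e 0.30 ± 0.14 (0.436). A dimmer Itgax probe that entered gave 0.08. The summed level of the 14 leukocyte genes was 12.1 and 10.5 in pLN and 9.64 and 11.1 in mLN.

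Among the other cells a CD45- sample can hold, 15 blood endothelial genes had a median difference of -0.18 and 0 calls, and their summed level was 493 and 543 in pLN and 422 and 502 in mLN. Of these 15 differences, which ran from -1.29 to 0.27, 5 were positive and 10 negative. Without overlap, 1 lay higher in mLN (background 20.6%) and 5 lower (background 25.0%). Esm1 gave -0.33 ± 0.16 (limma adjusted p = 0.457), Rgcc -0.53 ± 0.27 (0.479), Plvap -0.26 ± 0.14 (0.487) and Sele -1.29 ± 0.81 (0.579). The 14 genes of fibroblastic reticular cells, the node's scaffold cells, had a median of 0.11 and 0 calls. Their differences were positive for 11 and negative for 3. Lum gave 0.86 ± 0.14 (limma adjusted p = 0.103), Tnfsf11 2.47 ± 0.65 (0.205), Icam1 0.34 ± 0.17 (0.473) and Vcam1 0.52 ± 0.32 (0.570). Of 9 nerve and enteroendocrine genes tested, which bear on Nts, limma called 0, with a median of -0.08. Scg2 gave -1.58 ± 0.18 (limma adjusted p = 0.0529), Ret -0.76 ± 0.17 (0.152), Cck -0.97 ± 0.23 (0.180) and Uchl1 0.78 ± 0.27 (0.309).

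Of 12 mesothelial genes, which mark the lining of the body cavity in which the mesenteric node lies, 7 were called and all 7 rose. Over all genes 1.05% were called, 0.776% higher in mLN. Of the 12 differences 9 were positive and 3 negative, with 8 higher without overlap (background 20.6%) and 1 lower (background 25.0%). The summed level of the list was 31.7 and 33.0 in pLN and 71.4 and 54.3 in mLN. Upk3b rose by 9.62 ± 0.15 (limma adjusted p = 0.00265), Msln by 8.88 ± 0.57 (0.0159) and Muc16 by 4.61 ± 0.30 (0.0159). Another, dimmer Muc16 probe gave 0.26. Lrrn4 and Upk1b, well above background on 1 of 2 pLN arrays, rose by 8.02 ± 0.57 (limma adjusted p = 0.0179) and 8.76 ± 0.66 (0.0201). The pLN signals of Bnc1 and Wt1 were not well above background, which leaves a bound against the lowest signal well above background there. This was at least 62.5-fold higher in mLN for Bnc1 and at least 72.8-fold for Wt1. The limma adjusted p of 0.00486 and 0.00890 belongs to their fitted differences of 8.04 and 7.77, not to the bounds. Bnc1, Wt1, Lrrn4 and Upk1b entered the fit only through the mLN arrays, where they are high. Leaving out either pLN array ended all 7 calls (limma adjusted p from 0.0604 to 0.136), and leaving out either mLN array ended those of Lrrn4 and Upk1b (0.0568 to 0.0657). Without the filter on dim probes Lrrn4, Msln, Muc16 and Upk1b were no longer called (0.0537 to 0.0611). The part of other cell types in the values of the 9 genes was not tested.

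The medians of several lists depend on the scale. Scaled to pan-endothelial genes, which moved the median of all genes to 0.37, the median was 0.21 for the VEGF-C axis, 0.28 for the sinus genes, 0.22 for the blood endothelial, 0.36 for the leukocyte, 0.08 for the platelet and 0.32 for the nerve and enteroendocrine genes, each above 0 where the other scale had it below. Under normexp, with a median of 0.38 over all genes, the leukocyte, platelet and nerve lists turned to 0.59, 1.40 and 1.35 and the reticular list to -0.21. The hyaluronan list was at 0.40 under normexp and 0.37 under pan-endothelial scaling.

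The genes whose pattern over the 4 arrays was most like that of Lyve1, by Euclidean distance of levels centred on their mean, were Dpt (0.0759), Neo1 (0.0776), Dmpk (0.0811), Sema4a (0.0821) and Bdh1 (0.0867). Nearest to the mean of the other 8 genes were Vps36 (0.0160), Ccne2 (0.0504), Mtag2 (0.0611), Umod (0.0642) and Nabp2 (0.0645). None of the 9 lymphatic genes was among the 5 nearest to Lyve1. These distances rest on 4 arrays and describe likeness only.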

How the data were processed

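CD45- cells of mLN and pLN were measured on 4 single-colour arrays (2 per node). The deposited intensity values come from Agilent Feature Extraction, which the submitters' processing notes and the file headers give as version 9.5.3.1, and the authors' scanner software had already subtracted background from them. Other deposited columns are flags for background, saturation and outliers. All arrays share 1 slide and 1 scan, so neither could be tested as a batch. The deposited value table, used as an alternative, holds the same intensity multiplied by a factor of 0.862 to 0.890 per array, with a floor of 15.

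Processed signals were converted to log2 here, minus each array's 75th percentile. Control spots were left out. Probes entered when well above background on both arrays of a node (31883 probes), and each gene was read from its brightest probe (21392 genes). Limma 3.58.1 in R 4.3.3 compared the nodes, with Benjamini-Hochberg adjustment over all genes at 0.05, and the script was checked on simulated data. Printed intervals are 95% intervals of that fit; the number of arrays limits their precision. Probes were named by accession (24367), current symbol (6307), synonym (2425) or the file's own name (8075). Probe positions are those of the files (mm8).

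The 9 genes and the gene lists were chosen with earlier results of these data known. Named genes are the 9, every called gene of a list and otherwise up to 4 genes of a list with the smallest p, and the 5 nearest in pattern; 1 gene that this rule names is not reported here. Cd163, Vsig4, Lyz2, Cd68, C1qa, C1qb, C1qc, Adgre1 and Csf1r fall outside it and were chosen after their values were seen. The numbers 1 and 2 mark a shared experiment per the labels; deviations of same-numbered arrays correlated at 0.246 across genes. Since the labels name no animals, each p-value reflects the spread between these samples alone, which may be technical. Alternatives changed the background correction, scaling, filter, probe choice, variance model, experiment block, value table and arrays used.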

Additional observations from a re-analysis of the deposited data

How the results depend on the processing

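Limma called 225 genes, 166 higher and 59 lower in mLN. With the experiment as a replicate block it called 333, and Lyve1 was at an adjusted p of 0.0966, with no change in the calls of the 9 genes. Normexp called 0 (all genes' median 0.38), median scaling 354, no filter on dim probes 44 (37 higher, 7 lower), an intensity trend 441, and scaling to pan-endothelial genes, chosen after seeing the data, 898 (805 higher, 93 lower; all genes' median 0.37). Leaving out 1 array gave 0 to 190 calls, with 0 without either pLN array, 167 without the mLN array of experiment 1 and 190 without that of experiment 2. Of the 9 genes, 1 was called with the trend and 1 with pan-endothelial scaling, Lyve1 in each. Of 132 alternative values for the 9 genes, 125 kept their direction and side of the threshold. With the experiment block, the intensity trend or a changed filter the difference itself was the same as in the main fit. There only the side of the threshold could change. The sign turned for Flt4 under normexp (0.37), for Nts (0.19) and Fgl2 (0.18) under pan-endothelial scaling, for Nts without the pLN array of experiment 2 (leaving out 1 array gave -0.53 to 0.11) and for Fgl2 without the mLN array of experiment 2 (-0.57 to 0.13). The departure of Lyve1 from the others is taken within arrays, so median and pan-endothelial scaling cannot change it. The value table and the lack of a filter on dim probes left it the same or nearly so. Of the 56 alternative values for it, these included, that from Reln turned to -0.25 under normexp. The departure from Flt4 was there 0.33 in place of 1.67. The cause of these shifts was not tested. The median of the 9 genes ran from -0.57 to 0.18 over all alternatives. Where a printed interval includes 0, no difference was detectable with 2 arrays per node.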
